A study of Mus musculus with 48 samples.

Results

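In P19 mouse embryonic teratoma cells, 1762 open chromatin regions had a lower ATAC-seq fold enrichment after both 1 h and 8 h of Activin than with the receptor inhibitor SB-431542. They are 1.08% of the 162505 regions with a peak in all 4 signalling states, and these in turn come from 287329 regions found in any state. The members were chosen by their fold enrichment. The 4 lists of peaks were merged wherever peaks overlapped by at least 1 bp, and the highest fold enrichment in each region was divided, list by list, by the median over the shared regions. L is the log2 of this scaled value over that with SB-431542, and a member has an L of -0.3 or less at 1 h and at 8 h. The lower values at these 2 times are therefore the rule and not a finding.

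All cells were P19 cells in full medium. The SB-431542 state was kept overnight in 10 µM SB-431542, a blocker of the type I receptors that NODAL and Activin share, then washed and held in the inhibitor for another hour. The 1 h Activin and 8 h Activin states had the same overnight block and wash, and were then given 20 ng/ml Activin A. Untreated cells were never blocked and signal continuously through the NODAL and GDF3 that they make themselves. Each list merges 2 biological replicates, so differences between states have neither a replicate spread nor a p-value, and the intervals on shares below cover counting error alone.

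SMAD2 and SMAD3 carry the Activin and NODAL signal to the chromatin, where, joined by SMAD4, they often need partners such as the forkhead protein FOXH1. The targets include *Nodal* itself and the feedback inhibitors *Lefty1*, *Lefty2*, *Smad7* and *Pmepa1*. ATAC-seq reads open chromatin through the Tn5 transposase, and the fold enrichment of a peak is the ratio of its mean read pileup to the local background that MACS2 takes from the same sample. A lower ratio can therefore come with fewer reads in the peak or with more reads around it, and both were estimated for each member from the fold enrichment and the -log10 p of the peak.

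The AP-1 consensus TGANTCA, as searched here, is a loose form of the site of JUN and FOS dimers. Any base was allowed at N, and matches such as TGAATCA and TGAGTCA were counted together. Several of the members described below carry this consensus in their central 300 bp. The 120 bases around this match are shown for 7 of them, taken from the deepest falls, the highest -log10 q and the deepest fall near each gene list, because the share of AP-1 differed between members grouped by their 8 h value relative to their 1 h value. An eighth sequence, from the region with the deepest fall, is shown for its repeated structure. They are written on the plus strand of the GRCm38 reference (mm10) as given by RefSeq, with the match in capitals, and they were picked after the values had been seen.
Near *Adgrv1*, chr13:81640541-81640660: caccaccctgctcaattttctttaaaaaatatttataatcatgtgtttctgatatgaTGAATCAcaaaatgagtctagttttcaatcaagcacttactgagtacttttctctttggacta
Near *Nrros*, chr16:32136103-32136222: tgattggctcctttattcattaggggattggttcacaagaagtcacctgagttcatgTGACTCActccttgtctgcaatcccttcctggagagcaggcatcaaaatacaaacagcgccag
*Mcf2l* intron, chr8:12911624-12911743: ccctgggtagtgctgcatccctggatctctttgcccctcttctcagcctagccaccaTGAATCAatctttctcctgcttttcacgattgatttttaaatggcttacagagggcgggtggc
Near *Ube2v2*, chr16:15524007-15524126: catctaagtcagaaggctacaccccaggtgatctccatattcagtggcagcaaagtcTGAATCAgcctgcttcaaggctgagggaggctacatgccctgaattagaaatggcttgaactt
Near *Jun*, chr4:95035633-95035752: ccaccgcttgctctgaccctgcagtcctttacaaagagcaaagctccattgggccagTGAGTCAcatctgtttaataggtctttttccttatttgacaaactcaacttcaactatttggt
Near *Spry2*, chr14:105851619-105851738: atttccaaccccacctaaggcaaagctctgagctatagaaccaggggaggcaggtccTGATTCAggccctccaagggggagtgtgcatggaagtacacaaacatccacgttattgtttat
*Ppfia4* intron, chr1:134336629-134336748: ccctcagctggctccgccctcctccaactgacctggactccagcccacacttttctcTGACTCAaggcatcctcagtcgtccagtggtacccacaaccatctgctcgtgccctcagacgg
Downstream of *Mir3072*, chr12:109790443-109790562: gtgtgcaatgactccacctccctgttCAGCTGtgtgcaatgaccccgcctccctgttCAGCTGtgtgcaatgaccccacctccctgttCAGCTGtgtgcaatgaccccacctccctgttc

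The lists held 234758 peaks with SB-431542, 233336 after 1 h of Activin, 209212 after 8 h and 220004 for untreated cells. The lowest local background, which scales with sequencing depth, stood at 92.8%, 79.7% and 85.6% of the SB-431542 value at 1 h, at 8 h and in untreated cells, and the scaling by list medians takes out such a factor. Promoters of 6 of 6 marker genes of embryonal carcinoma cells, among them *Pou5f1* and *Sox2*, had a peak in every list, but so did 13 of 18 promoters of markers of other cell types, so promoter peaks do not separate cell types here. In bulk samples, fewer cells with an open site and less opening per cell cannot be told apart.

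The members were strong sites with SB-431542 and ordinary sites in the other states, which for SB-431542, 1 h and 8 h follows in part from the rule. The SB-431542 value is the denominator of both L conditions, so the rule favours regions that are high in that list. Their median fold enrichment stood at 3.75 with SB-431542, 2.67 after 1 h of Activin, 2.61 after 8 h and 2.78 in untreated cells. Over all shared regions the medians were 2.67, 2.49, 2.62 and 2.62 in the same order of states. In the ranking of the shared regions the median member stood at percentile 74.3 with SB-431542, 55.8 at 1 h, 49.5 at 8 h and 55.2 in untreated cells. None of the members lost its peak, since the rule asks for a peak in every list, and 1307 of the 1762 (74.2%) had a -log10 q of 5 or more in all lists, against 62.3% of all shared regions.

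**Figure D1:**
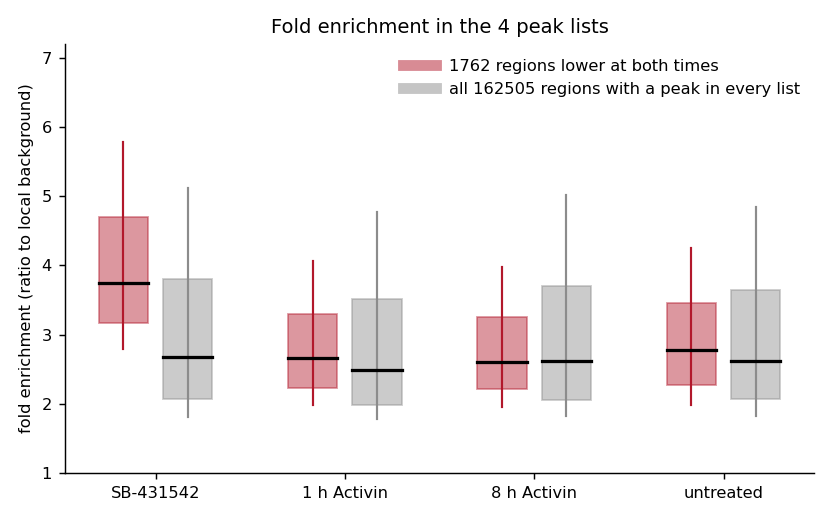
Fold enrichment (ratio to the local background) in the 4 lists for the 1762 regions lower at both times (red) and for all 162505 shared regions (grey). Black lines are medians, boxes run from the 25th to the 75th percentile of regions and whiskers from the 10th to the 90th. The members' median of 3.75 with SB-431542 stands above the 2.61 to 2.78 of the signalling states, which for 1 h and 8 h goes with the rule.

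For most members the fall was moderate. The median L was -0.37 at 1 h and -0.45 at 8 h. At 8 h 32 members had an L of -1 or less, and at 1 h none did, while 98 had an L of -0.5 or less at both times. L was lower at 8 h than at 1 h in 1199 members (68.0%), against 54.4% of all shared regions. In 203 members (11.5%) it was lower by more than 0.3, against 8.78% of all shared regions. Taken alone, the 1 h condition was met by 3.05% of all shared regions and the 8 h condition by 8.70%. The 3 members nearest to the limit had an L of -0.3001 at the weaker time, near *Meg3*, *Gm12409* and *4930478P22Rik*, and the nearest regions outside it, in introns near *Mapk9*, *Swap70* and *Zap70*, had -0.2999 or a value that rounds to the limit.

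Among members with a -log10 q of 5 or more in all lists, the deepest mean fall was at chr12:109790106-109790898, an intergenic region 42.6 kb downstream of *Mir3072*, a microRNA gene of the imprinted *Dlk1*-*Dio3* domain. Its fold enrichment stood at 9.62 with SB-431542, 5.65 at 1 h, 2.25 at 8 h and 3.24 in untreated cells. The estimated pileup went the same way, with 302, 163, 57.3 and 86.0 reads per base, and the estimated background was 31.3, 28.9, 25.4 and 26.5. The sequence printed above shows that this region is a tandem repeat, in which the central 300 bp match themselves at a shift of 31 bp over 86.6% of positions and hold the E-box CAGCTG 7 times. The part of the repeat in these values was not tested. Of the members, 10 (0.568%) reached 80% self-identity at some shift of 5 to 100 bp, against 225 (0.138%) of all shared regions.

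An intron of *Utrn*, which encodes the dystrophin-related protein utrophin, held the highest fold enrichment among the members described here. At chr10:12399363-12399862 the ratio was 12.2 with SB-431542, 8.07 at 1 h, 5.86 at 8 h and 4.21 in untreated cells. The estimated pileup was 391, 255, 150 and 116 reads per base, and the peak kept a width of 356 to 500 bp. This region therefore fell step by step across the states in both quantities. A comparable order was seen at chr14:105851165-105851972, 45.2 kb downstream of *Spry2*, a feedback inhibitor of FGF and ERK signalling. There the ratio was 7.74 with SB-431542, 5.71 at 1 h, 4.41 at 8 h and 2.262 in untreated cells, and its L in untreated cells, -1.75, was the lowest among members with a -log10 q of 5 or more in all lists.

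A member inside *Xylb* lay 19.5 kb upstream of *Acvr2b*, the gene of a type II Activin receptor. At chr9:119382399-119383014 the fold enrichment stood at 6.35 with SB-431542, 4.30 at 1 h, 2.46 at 8 h and 2.67 in untreated cells, with an estimated pileup of 201, 129, 62.2 and 74.7 reads per base. Near *Nrros*, which encodes a membrane protein that holds latent TGF-β1, the ratio at chr16:32135945-32136337 was 4.68 with SB-431542, 2.72 at 1 h, 2.46 at 8 h and 2.68 in untreated cells. Most of this difference was already present at 1 h. A region at chr4:95035292-95035883, 16.6 kb downstream of *Jun*, a subunit of AP-1, had 6.03 with SB-431542, 4.51 at 1 h, 3.87 at 8 h and 2.79 in untreated cells.

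Of the other members among the 12 with the deepest falls and a -log10 q of 5 or more throughout, the one nearest to *Mir6379* had a ratio of 7.59 with SB-431542, 5.29 at 1 h, 3.05 at 8 h and 2.71 in untreated cells. Its peak covered 667 bp with SB-431542 and 1291 to 1668 bp in the other lists. In an intron of *Lpp*, which encodes a LIM protein of focal adhesions, the ratio was 6.72, 3.54, 3.50 and 3.799, on peaks of 561, 1794, 330 and 354 bp. The part of peak width at these members was not tested. Each series of 4 values below has the same order of states.

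Other members with a very high -log10 q with SB-431542 fell less and stayed strong. In an intron of *Nalcn*, a sodium leak channel gene, the fold enrichment stood at 10.0 with SB-431542, 6.66 at 1 h, 7.94 at 8 h and 7.51 in untreated cells. In an intron of *Itih5* it was 9.25, 6.43, 6.61 and 4.53 in the same order, and near *Ube2v2* it was 8.49, 5.82, 6.10 and 5.22. In an intron of *Mcf2l* it was 7.86, 5.73, 5.89 and 6.00. An intergenic site whose nearest gene was *1700128A07Rik* had 11.1, 8.35, 7.90 and 7.84. The promoters of *Snupn* and *Il7* and an intergenic site near *Padi1* were also among the 12 members with the highest -log10 q, with ratios of 5.80 to 7.49 with SB-431542 and 3.82 to 6.42 in the other states. Their values in the later lists thus remained above the median of all shared regions.

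**Figure D2:**
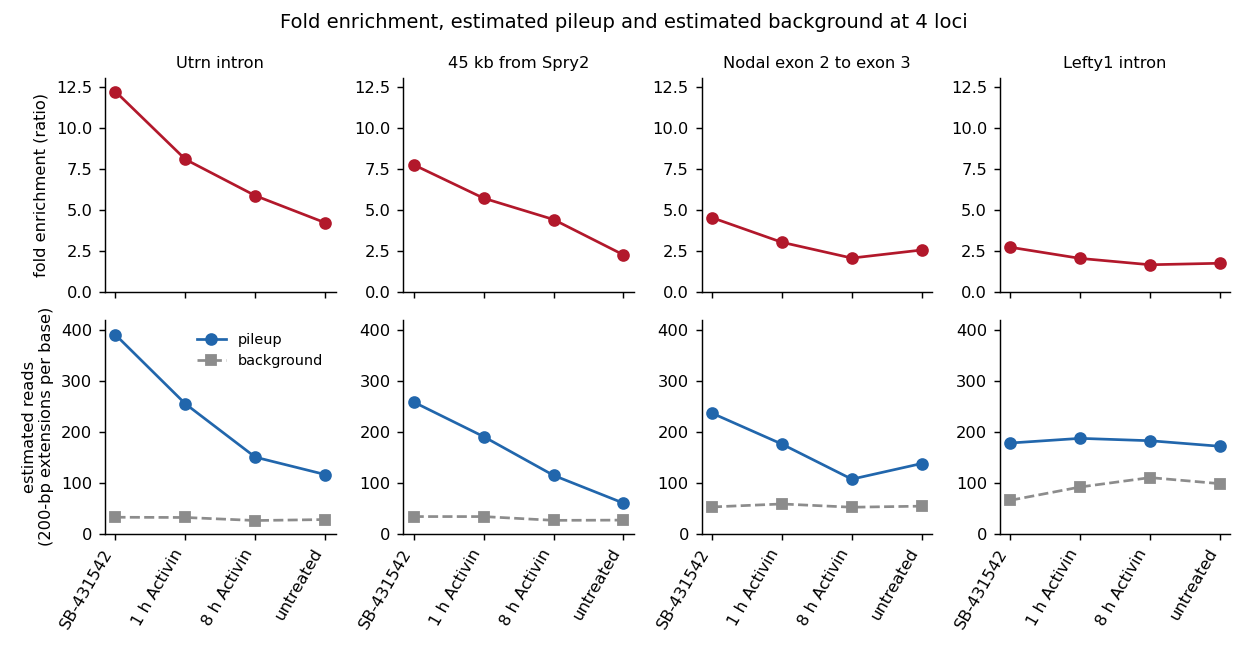
Fold enrichment (ratio, upper row) and estimated pileup and local background (reads per base, lower row) in the 4 lists at the members in *Utrn*, near *Spry2*, in *Nodal* and in *Lefty1*. At *Utrn* and *Spry2* the pileup falls with the ratio, whereas in *Lefty1* the pileup stays between 172 and 187 while the background is 65.3 with SB-431542 and 91.5 to 110 in the other states.

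In untreated cells, whose own values were not part of the rule although their L shares the SB-431542 value with it, many members were low as well. An L of -0.3 or less was found in 1159 members (65.8%), against 10.0% of all shared regions, and the median L was -0.40 in the members and -0.00 in all. This was not particular to them, since the share was 62.1% in the regions with an L of -0.3 or less at 8 h but not at 1 h (lower at 8 h alone), and it was 17.2% in all regions at least as strong with SB-431542 as the median member. With members chosen by a fall of 10 percentile points the share was 33.4%, and with a threshold of -0.2 it was 50.4%. A further 418 members lay between -0.3 and -0.1, and 185 lay above -0.1. Untreated cells had the lowest scaled value of the 4 states in 581 members, 8 h Activin in 770 and 1 h Activin in 411. Members that were lower at 8 h than at 1 h by more than 0.3 had a median L of -0.77 in untreated cells, and those at or above their 1 h value at 8 h had -0.31.

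Only 70 members (3.97%) had an L above 0 in untreated cells, against 49.9% of all shared regions. The 5 highest with a -log10 q of 5 or more in all lists were intergenic. Upstream of *Cdca7* the fold enrichment stood at 2.98 with SB-431542, 2.102 at 1 h, 2.34 at 8 h and 3.41 in untreated cells. Upstream of *Kcnk5*, a potassium channel gene, it was 3.89, 2.69, 3.00 and 4.44, and upstream of *Tubg2*, a gamma-tubulin gene, 2.96, 2.22, 2.32 and 3.38. The others lay near *Gm4791* and *Gm27211*. At these sites untreated cells and SB-431542 cells were both above the 2 Activin time points. An intron of *Stra6*, a retinol transporter gene, had the same shape, with 3.35, 2.46, 2.60 and 3.77.

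**Figure D3:**
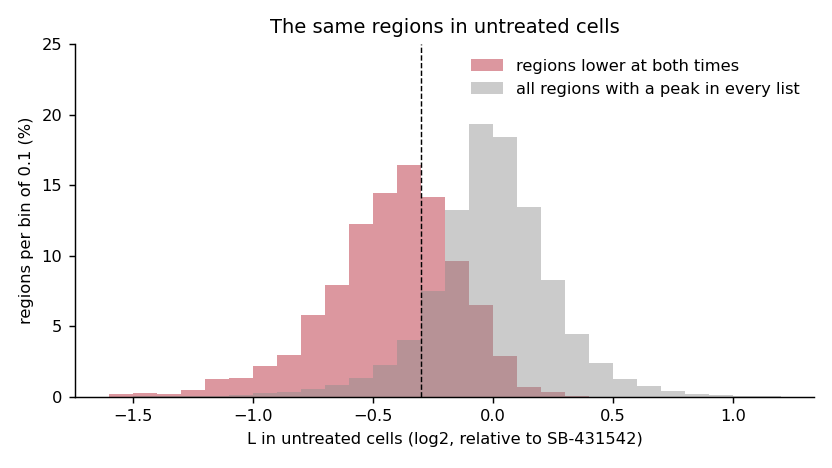
L in untreated cells (log2, relative to SB-431542) for the regions lower at 1 h and 8 h (red) and for all shared regions (grey), as the percentage of regions per bin of 0.1. The dashed line is -0.3, and 65.8% of the members lie at or below it against 10.0% of all shared regions (62.1% of the regions lower at 8 h alone, not drawn).

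The estimated pileup and background behind the fall differed between members. Scaled by its median in the same way, the pileup was also lower by 0.3 or more at both times in 965 members (54.8%), against 1.07% of all shared regions, and the median change was -0.34 at 1 h and -0.41 at 8 h. Both quantities come from the lists that chose the members, so this is a description. The background had a median change of 0.02 at each time. In 76.1% of members with SB-431542, 63.5% at 1 h and 70.9% at 8 h it lay within 10% of the floor of its list, taken as the 5th percentile. Over all shared regions these shares were 54.4%, 56.1% and 58.9%. For most members a change of the surroundings below this floor could therefore not be seen. In 5 members (0.284%, against 33.95% of all shared regions) the scaled pileup was above 0 at both times, so that the ratio was lower with a higher background alone. The remaining members met neither condition. A lower ratio with a higher pileup needs a higher background. In part for this reason, these 5 were also the 5 members with the largest mean rise of the background. They lay in introns of *Has1*, *Fhod3* and *Pmepa1*, in *Lefty1* from exon 2 into exon 3, and in the interval between *Lefty2* and *Lefty1*. Of these 5 members, 3 are within 50 kb of NODAL and Activin targets, as are 8 of all 1762 members.

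In *Lefty1*, which encodes a secreted inhibitor of NODAL, the member at chr1:180936544-180937098 lies 1.799 kb downstream of the start site and reaches from the second exon into the third. Its fold enrichment stood at 2.72 with SB-431542, 2.05 at 1 h, 1.66 at 8 h and 1.75 in untreated cells. The estimated pileup was 178, 187, 182 and 172 reads per base and the estimated background 65.3, 91.5, 110 and 98.1, so the ratio fell while the reads in the peak hardly moved before scaling. In the intergenic interval between *Lefty2* and *Lefty1*, at chr1:180918590-180920096, the ratio was 4.98, 3.42, 3.06 and 2.87. There the pileup was 174, 167, 161 and 183 and the background 35.0, 48.7, 52.6 and 63.7.

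An intron of *Pmepa1*, a gene for a membrane protein that dampens SMAD signalling, held a member at chr2:173232708-173233358. Its fold enrichment stood at 2.97 with SB-431542, 2.17 at 1 h, 2.01 at 8 h and 2.46 in untreated cells, with a pileup of 219, 231, 184 and 194 and a background of 73.6, 106, 91.7 and 78.8 reads per base. *Has1*, a hyaluronan synthase gene, showed the largest change of background, with 33.2, 75.2, 52.9 and 48.3, on a peak of 660 bp with SB-431542 and 2177 to 2846 bp in the other lists. The part of peak width in these values was not tested.

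**Figure D4:**
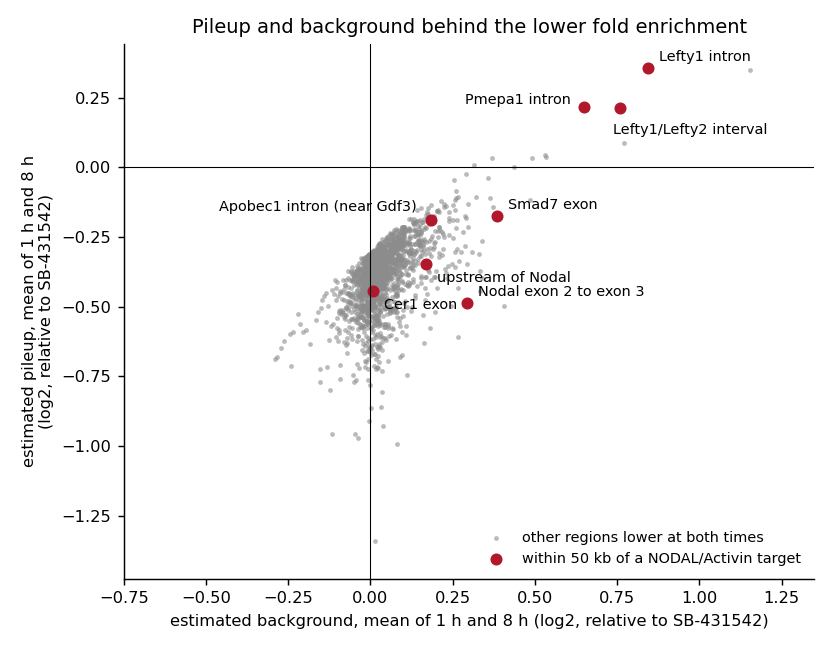
Estimated pileup against estimated local background for the 1762 members, each as the mean log2 change at 1 h and 8 h relative to SB-431542 after scaling by the median of all shared regions. Members within 50 kb of a NODAL/Activin target are red. Those in *Lefty1* (labelled intron by its centre), between *Lefty2* and *Lefty1* and in a *Pmepa1* intron stand in the upper right, with pileup above 0. The members at *Nodal* and *Cer1* have a lower pileup, like the bulk of the regions (grey).

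*Nodal* itself held a member in which the reads did fall. The region at chr10:61423246-61424720 runs from the second exon across the intron into the third exon of *Nodal*, 6.01 kb downstream of the start site. Its fold enrichment stood at 4.53 with SB-431542, 3.03 at 1 h, 2.07 at 8 h and 2.56 in untreated cells, and its pileup 237, 176, 107 and 138 reads per base on a background of 52.3, 58.2, 51.8 and 53.9. After scaling by the list medians, its pileup changed by -0.20 at 1 h and -0.78 at 8 h. The scaled background changed by 0.26 and 0.33, so at 1 h the rise of the background was the larger change. The peak covered 1475 bp with SB-431542 and 304 to 438 bp in the other lists. A second member near *Nodal*, at chr10:61398084-61400159 in the intergenic stretch toward *Pald1*, had ratios of 4.91, 3.02, 3.51 and 4.23 with a pileup of 235, 137, 164 and 191. In exon 2 of *Cer1*, which encodes a secreted antagonist of NODAL, BMP and WNT, the ratio was 3.90, 2.86, 2.57 and 3.46, and the pileup 123, 82.5, 65.3 and 93.7.

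Together, 8 of the 175 shared regions within 50 kb of a start site of a gene on the list of NODAL/Activin targets were members, or 4.57% against 1.08% of all shared regions. Besides those at *Lefty1*, *Lefty2*, *Nodal*, *Pmepa1* and *Cer1* they lay in exon 4 of *Smad7*, the gene of an inhibitory SMAD, with ratios of 2.59, 1.73, 1.61 and 1.66, and in an intron of *Apobec1* within 50 kb of *Gdf3*, a NODAL-related ligand. Within 10 kb the count was 3 of 51. The median L of the 175 regions was 0.03 at 1 h and -0.04 at 8 h, beside 0.03 and 0.01 over all shared regions, and 5 of the 175 were 0.3 or more higher at both times. The list was drawn up with earlier results of these data known, and 4 of its 8 members lie at *Lefty1* and *Nodal*, with 2 each.

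Around the genes of the other lists the counts were 0 to 3, to be read against the 1.08% of all shared regions that were members. Of 124 shared regions near genes of the SMAD pathway 3 were members (2.42%), near *Acvr2b*, *Bmpr2*, the type II BMP receptor gene, and *Ski*, the gene of a SMAD corepressor. The same number was found among 123 regions near TEAD and YAP targets (2.44%), with 2 upstream of *Lats2*, a Hippo pathway kinase gene, and 1 upstream of *Yap1*. Upstream of *Lats2* at chr14:57753481-57754163 the ratio was 3.99 with SB-431542, 2.91 at 1 h, 1.99 at 8 h and 1.65 in untreated cells. The -log10 q there was only 1.59 in untreated cells. BMP genes had 2 of 142 (1.41%, near *Bambi* and *Id1*), and WNT genes 3 of 233 (1.29%, near *Tcf7l2*, *Wnt3a* and *Wnt5b*). In an intron of *Tcf7l2*, a nuclear effector of WNT signalling, the ratio was 3.65, 2.58, 1.902 and 1.602. The -log10 q of this peak was only 1.33 in untreated cells.

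The pluripotency list had 2 of 198, near *Dnmt3b* and *Dppa3*, and the mesendoderm list 1 of 114, upstream of *Hhex* inside *Kif11*. Immediate early genes, FGF and ERK feedback, retinoic acid genes, the cytoskeleton and matrix, and blood, muscle and liver genes had 1 each, near *Jun*, *Spry2*, *Stra6*, *Myl9* and *Myog*. The last lies in an intron of *Ppfia4* and had ratios of 2.81, 1.92, 2.00 and 2.20. None of the 186 regions near neural genes or the 137 near housekeeping genes was a member. Over all 14 lists 26 of 2108 regions were members, 1.23% against the 1.08% of all shared regions.

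Few members lay at promoters. A centre within 1000 bp upstream to 100 bp downstream of a start site was found in 31 members (1.76%), against 5.71% of all shared regions and 15.4% of the regions that were at least as strong with SB-431542 as the median member. Introns held 720 (40.9% against 32.9%), intergenic DNA 936 (53.1% against 56.3%), exons 56 and termination sites 19. The median distance to a start site was 34.2 kb, against 49.95 kb. Regions that were 0.3 or more higher at both times had 1.38% in promoters and 33.5% in introns, and those lower at 8 h alone 2.57% and 37.0%, so a low share of promoters was common to all of these groups.

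Among coding promoters the deepest falls with a -log10 q of 5 or more throughout were at *Plk3*, a stress-responsive polo-like kinase gene, *Nipbl*, the gene of the cohesin loader, *Tex19.1*, a germline gene, *Phkg1*, a phosphorylase kinase subunit gene, and *Pamr1*. At *Plk3* the ratio was 5.95 with SB-431542, 3.31 at 1 h, 3.21 at 8 h and 2.95 in untreated cells. At *Nipbl* it was 3.99, 2.60, 2.61 and 2.47. In both, the SB-431542 list split into 2 peaks what the other lists called as 1 wide peak, and the strongest SB-431542 peak covered 574 bp at *Plk3* and 338 bp at *Nipbl*, against 2650 to 4643 bp in the other lists. At *Tex19.1*, with peaks of 383 to 587 bp, the ratio was 4.60, 3.24, 2.97 and 4.09, and at *Phkg1* it was 5.01, 3.26, 3.55 and 4.13. At *Pamr1*, with peaks of 507 to 662 bp, it was 4.66, 3.47, 2.91 and 2.92.

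Peak extent differed in this way at a minority of members. The SB-431542 list had more than 1 peak in 170 of them (9.65% against 2.61% of all shared regions), and the strongest peak was at least 1.5 times wider at both Activin times in 240 (13.6% against 3.31%). The members near *Adgrv1*, *Gm17019*, *Ifi208* and *D16Ertd472e*, all among the 12 deepest falls, had 2 peaks with SB-431542 and a wider strongest peak at both Activin times, as did those at *Has1* and *Plk3*. The ratio was 6.55, 3.06, 3.61 and 3.41 near *Gm17019*, 6.68, 4.40, 2.60 and 2.39 near *D16Ertd472e*, and 4.78, 2.52, 2.67 and 2.52 in *Has1*. Near *Ifi208*, an interferon-activated gene, it was 6.04, 2.87, 3.41 and 5.66, so untreated cells stood close to SB-431542 cells there. At *Adgrv1*, an adhesion receptor gene, the ratio was 7.88 with SB-431542, 3.86 at 1 h, 3.27 at 8 h and 3.44 in untreated cells, on peaks 1240 bp wide with SB-431542 and 2454 to 3047 bp in the others.

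Of the members, 994 (56.4%) had 1 peak with SB-431542, at 1 h and at 8 h and widths within 1.5 times of each other. Over all shared regions this share was higher, at 66.5%. In the 994 members the scaled pileup was lower by 0.3 or more at both times in 603 (60.7%). Their L in untreated cells was -0.3 or less in 617 (62.1%), and promoters made up 1.91% of them. They include the members at *Utrn*, near *Acvr2b* and *Jun*, and downstream of *Mir3072*.

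The regions were narrower than most. Their median width was 671 bp, against 975 bp, and their GC content 48.9% against 47.2%. The ratio of observed to expected CpG was 0.166 in both groups, and repeats covered 17.9% and 18.3% of the median region. The share of shared regions that were members ranged over the assembled chromosomes from 0.653% on chromosome 19 to 1.69% on chromosome 14, with none of 37 on Y. A neighbouring shared region was a member for 81 members (4.60%), against 2.15% of all shared regions. At most 3 members lay within 50 kb of a start site of any gene, which was the case for 10 genes, among them *Lysmd3*, *Mttp*, *Trmt10a*, *4930579F01Rik* and *5430405H02Rik*, of which *Mttp*, *Trmt10a* and *4930579F01Rik* share the same 3.

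Of the enhancers that RefSeq annotates from experiments, 9 members overlapped at least 1 (0.511% against 0.305% of all shared regions). They lay near *Resp18*, *Epha4*, *Ren1*, *Spp1*, *Fgf21*, *Irx3*, *Meg3*, *Gm13749* and *1700085C21Rik*. Near *Resp18* the fold enrichment stood at 5.76 with SB-431542, 3.77 at 1 h, 2.84 at 8 h and 2.53 in untreated cells. At *Spp1*, the osteopontin gene, it was 5.54, 3.62, 4.17 and 4.13, and near *Irx3*, a homeobox gene, 4.26, 3.21, 3.03 and 4.50.

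Exact matches to 30 motifs were counted on both strands of the central 300 bp. AP-1 (TGANTCA) was found in 213 members, 12.1% (95% Wilson interval 10.7 to 13.7%) against 9.72% of all shared regions. TEAD (CATTCCA), the site of the factors that YAP joins, was found in 6.64% (5.57 to 7.90%) against 5.14%, and the P53 site (CATGCCC) in 5.11% (4.17 to 6.24%) against 3.88%. NFY (CCAAT) was found in 41.1% against 38.6%. On whole regions, AP-1 was found in 29.5% of members, against 25.8% of all shared regions reweighted to the members' widths and 30.9% without reweighting, and NFY in 67.9% against 67.9% reweighted. Reweighting all shared regions to the members' GC deciles left AP-1 at 9.58%, TEAD at 5.11% and the P53 site at 4.17%.

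Motifs of the NODAL pathway were not more common. FOXH1 (AATCCACA) was found in 11 members, 0.624% (0.349 to 1.11%) against 1.23%, and TCF/LEF (ATCAAAG), the site of the nuclear factors of WNT signalling, in 3.63% (2.86 to 4.61%) against 4.96%. The SMAD palindrome (GTCTAGAC) was found in 4 members, 0.227% against 0.265%, and the GC-rich SMAD box (GGCGCC) in 2.44% (1.82 to 3.27%) against 3.80%. KLF/SP sites (GGGCGGG) were found in 4.77% (3.87 to 5.86%) against 6.21%. Regions higher at both times held FOXH1 in 3.97%, TCF/LEF in 8.68% and the SMAD palindrome in 1.43%. For FOXH1 and TCF/LEF the members and the regions higher at both times thus stood on opposite sides of all shared regions. The GC-rich SMAD box, at 1.75%, and KLF/SP, at 2.33%, were below all shared regions there as well. In all regions at least as strong with SB-431542 as the median member, these 2 motifs were at 8.39% and 13.5%. On whole regions the FOXH1 difference was nearly gone, with 3.80% of members against 3.87% reweighted to their widths. For the SMAD palindrome the members' share was above the reweighted share, 1.02% against 0.880% there.

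**Figure D5:**
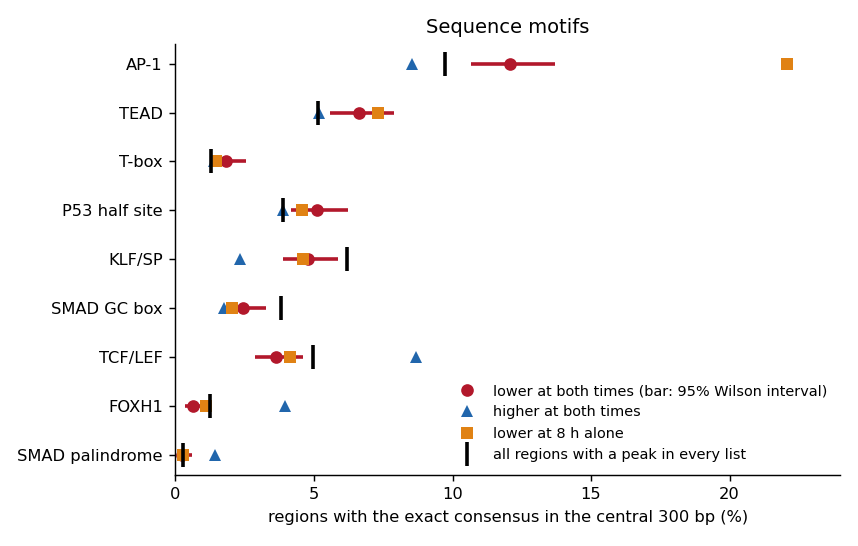
Percentage of regions with an exact motif match in the central 300 bp, for regions lower at both times (red, with 95% Wilson intervals that cover counting error), higher at both times (blue), lower at 8 h alone (orange) and all shared regions (black). AP-1 stands at 12.1% in the members, 22.1% in the regions lower at 8 h alone and 9.72% in all, while FOXH1 is at 0.624% in the members and 3.97% in regions higher at both times.

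The share of AP-1 followed the time course within the members. It was 17.2% in the 203 members that were lower at 8 h than at 1 h by more than 0.3, 14.3% in 489 lower by 0.1 to 0.3, 12.8% in 507 lower by up to 0.1, and 7.64% in the 563 that were at or above their 1 h value at 8 h. The 12374 regions that were lower at 8 h alone held it in 22.1%. The share was thus highest where the 8 h value lay furthest below the 1 h value. The T-box site (AGGTGTGA) was found in 1.82% (1.29 to 2.55%) against 1.29%. Octamer (ATGCAAAT), SOX (ACAATGG), ZIC (CCTGCTG), forkhead (GTAAACA) and CTCF (CCACNAGG) shares were within counting error of all shared regions, and the largest ratio of shares, 2.88 for the nuclear receptor repeat DR1, rested on 2 members. Every match is a match of letters and shows no binding.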

How the data were processed

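The study prepared ATAC-seq from P19 cells in 4 signalling states, with 2 biological replicates per state in its methods and 48 labelled libraries in all. Per the methods, the authors used cutadapt (1.9.1) for trimming, BWA (0.6.2) for alignment to mm10, Picard for marking duplicates and merging libraries, bedtools (2.26.0) for intervals and MACS2 (2.1.1.20160309) for broad peaks. The deposited lists hold 1 merged list per state, in which column 7 is the fold enrichment, a ratio of pileup to local background, and the next columns are -log10 p and -log10 q as the authors' MACS2 gave them. There were 0 other columns of per-sample values. Depth per library is unknown, since the lists hold no counts.

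Regions were merged and scaled as the report describes with Python 3.11.15, pandas 2.3.3, numpy 2.4.6, scipy 1.17.1 and pysam 0.24.0. Background and pileup were estimated by solving the Poisson tail for the fold enrichment and -log10 p. This step was tested on simulated Poisson counts with their exact tail. The listed values are means over whole peaks, which the simulation did not cover, so an error that depends on peak shape or width was not tested. Positions, gene names, annotated enhancers and sequences came from RefSeq on GRCm38.p6, the build of the lists. The members, gene lists and motifs were chosen with earlier results of these data known, so counts near listed genes are descriptions.

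Named regions were those with the deepest mean L and a -log10 q of 5 or more throughout (12), the highest -log10 q with SB-431542 (12), the deepest member near each gene list, the 5 genes with the most members, the 3 nearest to the limit on each side, the 5 lowest and 5 highest in untreated cells and the 5 deepest coding promoters. The motif with the largest ratio of shares, which was to choose the printed sequences, was in none of the members eligible for printing. AP-1 (ratio 1.24) was used instead, chosen after its shares had been seen. It was not the next motif by ratio, since others such as the T-box site (1.40) stood higher. Other members were named after their values were seen. The motifs searched beside those spelled out in the report were CRE (TGACGTCA), ETS (CCGGAAGT), the E-box CACGTG, the E-box CAGCTG, ESRRB/NR5A (CAAGGTCA), GATA-factor sites (AGATAA), RFX (GTTGCCATG), E2F (TTTCGCGC), YY1 (AAGATGGC), EGR (GCGTGGGCG), REST (TCAGCACC), ZFX (AGGCCTAG), NRF1, the SRF CArG box and DR1. Matches of different motifs may overlap. The alternatives tried were other merges, values, scalings, thresholds, extents, promoter definitions, distances and motif windows.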

Additional observations from a re-analysis of the deposited data

How the results depend on the processing

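No paired analysis was possible because each list merges the replicates of its state, and for the same reason no replicate could be left out. The number of regions lower at both times was 1762. It was 1167 among peaks with a -log10 q of at least 5, 14327 with -log10 q as the value, 7950 with a fall of 10 percentile points, 5951 at a threshold of -0.2, 98 at -0.5 and 994 with like extent, an alternative chosen after seeing the data. The estimated pileup gave 1747 regions, of which 965 were shared, and quantile mapping 1996, of which 1656 were shared. The median L in untreated cells, -0.40, was -0.37, -0.57, -0.21, -0.30, -0.60 and -0.37 under those first 6 alternatives in the same order, and -0.36 with quantile mapping. The share with an L of -0.3 or less in untreated cells, 65.8%, was 33.4% with percentile points, 50.4% at -0.2 and 85.7% at -0.5. Promoters, 1.76% of the members, made up 3.55% with the pileup, 3.06% at -0.5 and 2.78% by any overlap. The median width, 671 bp, was 616 bp with a width-weighted mean, 720 bp with -log10 q as the value, 595 bp with exactly 1 peak per list, 1078 bp at -0.5 and 498.5 bp with like extent. The share with a lower pileup, 54.8%, was 98.5% without scaling and 60.7% with like extent. The 26 members near listed genes were 6 within 10 kb. On whole regions, reweighted for width, the difference of the motif share from all shared regions turned to 0.14 percentage points for the SMAD palindrome and to -0.07 for NFY. The cause of these changes was not tested. Of all values recomputed, 58 stayed close, 33 moved and 2 turned round.

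The lists carry no replicate spread, the SB-431542 list enters every L, and low peaks near the calling limit have few reads above background.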
